A study of Mus musculus with 2 samples.

Results

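Heparan sulfate is a sulfated sugar chain of the cell surface and the extracellular matrix, and the genes described here are the sulfatases and enzymes that edit and build it. The 10 members were Sulf1, Sulf2, Ext1, Ext2, Ndst1, Hs2st1, Hs6st1, Hs6st2, Hs3st1 and Hs3st3b1, chosen by gene name among the probes of the array that are no control spots. They were picked with the ratios of these same arrays known, so their values are a description and no p-value is given for them. All 10 were found among the 27745 gene names of the array, with 17 of its 43379 spots that are no control.

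The study compared MEFs (mouse embryonic fibroblasts, cultured directly from the connective tissue of embryos) of genotype Lats2-/- (KO) with those of genotype Lats2+/+ (WT). Lats2 encodes a kinase of the Hippo pathway, which restrains growth by holding the coactivators YAP and TAZ out of the nucleus. Both genotypes were on the C57BL/6J strain and received no treatment. Total RNA of each was labelled with a fluorescent dye, Cy5 or Cy3, and the pair was hybridised to Agilent arrays covering the mouse genome, 2 in number, with the dyes exchanged. The study calls the WT cells littermate controls and, for a ranked list of genes, mentions several independent cell lines. The labels name no second RNA preparation of either genotype and no number of embryos or lines, so the arrays were counted as 1 replicate and on that reading the spread between them covers dye and hybridisation error only. The part of Lats2 that was deleted is not given in the sources used here. Most Lats2 probes went against the label, since 3 of 4 were higher in the KO-labelled RNA (log2 ratios of 0.56, 0.56 and 0.63) and 1 was lower, at -0.35. For that reason the samples are named KO-labelled RNA and WT-labelled RNA, and every direction below rests on the labels. Were the labels exchanged, each ratio would change sign and each rank would count from the other end. The study also examined Lats2 protein in such fibroblasts by western blot, which was not analysed here. It was not analysed here whether the probes lie in the deleted part. The 3 higher Lats2 probes lie close together on chromosome 14 (mm8), between 56644080 and 56645305. Those at 56644080 to 56644139 and 56644108 to 56644167 share bases, so the 3 are not independent readings. The lower probe lies apart from them, at 56676512 to 56676571.

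The chain is polymerised on a core protein by the EXT1 and EXT2 complex. NDST enzymes then replace acetyl groups by sulfate on the sugar nitrogen, the epimerase GLCE converts glucuronic to iduronic acid, and 2-O-, 6-O- and 3-O-sulfotransferases add further sulfates. After the chain has reached the cell surface, SULF1 and SULF2 remove 6-O-sulfates from its most sulfated stretches. In fibroblasts and other cells the sulfation pattern sets which growth factors, among them FGFs and Wnts, the chain holds.

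The array files held no probe sequences. RefSeq promoter entries (GRCm38.p6), 250 bases upstream of the transcription start, were found for 7 of the 10 members. Those of the 6-O-sulfotransferase pair and of Hs3st3b1 are shown because the ratios of the pair went in opposite directions and that of Hs3st3b1 varied most with the processing. They are written 5′ to 3′ on the strand of the gene, and capitals mark the GC box, GGGCGG read on either strand. The Hs6st1 window is chr1:36068150-36068399 on the + strand, the Hs6st2 stretch is chrX:51681706-51681852 on the - strand and holds the 147 bases of the window outside the gene, and the Hs3st3b1 window is chr11:63922285-63922534 on the - strand.
Hs6st1: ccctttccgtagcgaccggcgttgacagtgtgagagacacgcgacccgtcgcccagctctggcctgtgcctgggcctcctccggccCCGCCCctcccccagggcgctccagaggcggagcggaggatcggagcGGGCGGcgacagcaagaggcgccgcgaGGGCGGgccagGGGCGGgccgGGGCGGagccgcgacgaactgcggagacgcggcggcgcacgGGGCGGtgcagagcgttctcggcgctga
Hs6st2: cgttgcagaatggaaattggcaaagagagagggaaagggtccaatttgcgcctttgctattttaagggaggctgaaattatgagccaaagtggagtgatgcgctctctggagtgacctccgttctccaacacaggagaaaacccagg
Hs3st3b1: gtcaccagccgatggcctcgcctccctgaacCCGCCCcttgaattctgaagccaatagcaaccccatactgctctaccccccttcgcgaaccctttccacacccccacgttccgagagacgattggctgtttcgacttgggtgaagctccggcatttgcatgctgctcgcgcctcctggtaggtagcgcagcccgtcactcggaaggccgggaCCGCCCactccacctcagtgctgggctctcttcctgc

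The windows of the pair differed in base composition. That of Hs6st1 had a G+C content of 76.4%, 37 CpG dinucleotides and 6 GC box matches, at percentile 97.8 of CpG number among 32851 mouse promoters. That of Hs6st2 had a G+C content of 50% over its 250 bases, 7 CpG dinucleotides and no GC box match, at percentile 53.7. Hs6st2 had 2 promoter entries, against 1 for Hs6st1, and only the entry printed above is described. The Hs3st3b1 window had a G+C content of 62.4%, 17 CpG dinucleotides and 2 GC box matches. Over all promoters the median G+C content was 52.4% and the median CpG number 6, and 32.7% held a GC box. The letters GGAATG, the core of the motif of the TEAD factors that bind YAP and TAZ, were found in 12.6% of all promoters and TGANTCA, the AP-1 motif, in 6.75%, on either strand. Neither was in these 3 windows, which says only that those letters are absent from them. Among the other members with an entry, the Ext2 window held 1 match to the TEAD letters.

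Depth on these arrays means signal over background. No spot was saturated, and none of the member spots carried an outlier flag. Of the 17 member probes, 15 were well above background in both RNAs on both arrays. Levels below are intensities in arbitrary units after background correction and normalisation and can be compared between the RNAs for 1 probe, not between probes. Ratios are log2 of the KO-labelled RNA over the WT-labelled RNA, as the mean of both arrays with the SD between them. Over 22357 probes above background in both RNAs, the between-array SD of a single probe was 0.137. Of 15877 genes above background in at least 1 RNA, 4164 were higher and 4384 lower by more than that SD on both arrays. A like direction on both arrays is therefore common and, with 1 RNA pair, shows agreement between hybridisations only. A probe was called when it differed at least 2-fold on each array, in 1 direction, and was well above background in the RNA it was higher in.

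By that rule 3 member probes were higher and 1 was lower in the KO-labelled RNA. Among the 24186 probes above background in at least 1 RNA, 2.48% were called higher and 2.08% lower. With each gene represented by its brightest probe, Sulf1 and Hs6st2 were called higher and Hs6st1 lower, against 2.95% of 15877 genes higher and 2.61% lower. The members were chosen on this contrast, so nothing is read from these counts. The median log2 ratio of the 10 members was 0.08, beside -0.0003 over all genes. Over the 9 members above background in at least 1 RNA it was 0.12, beside -0.004 over all such genes.

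**Figure D1:**
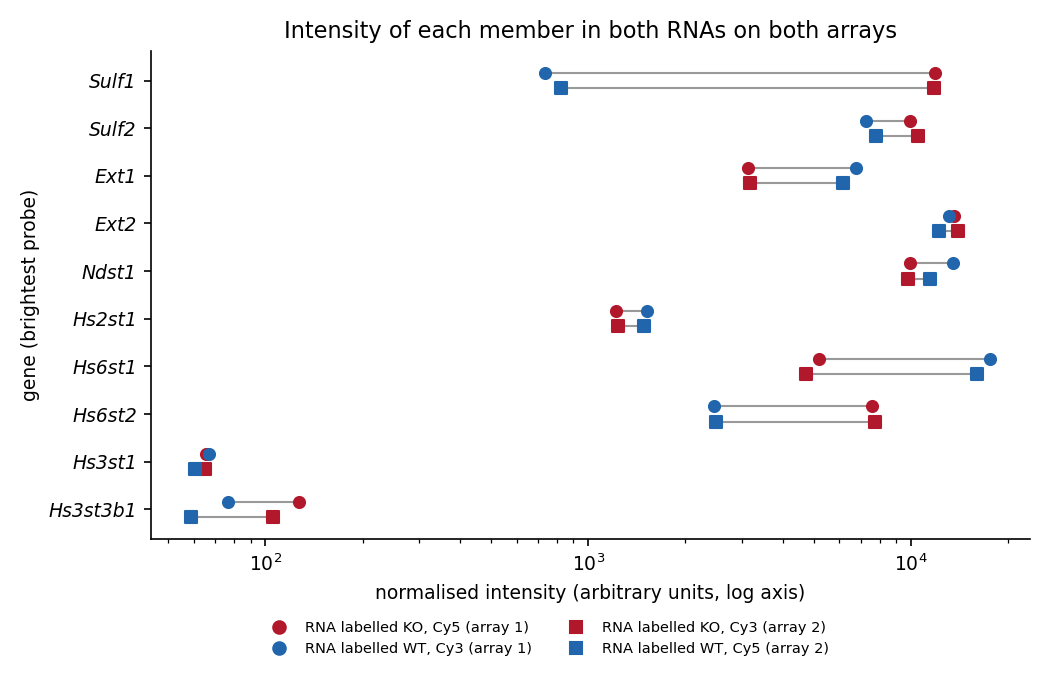
Normalised intensity (arbitrary units, log axis) of the brightest probe of each member, with the KO-labelled RNA in red and the WT-labelled RNA in blue, circles for the array with KO in Cy5 and squares for that with KO in Cy3. The red and blue points of Sulf1, Hs6st1, Hs6st2 and Ext1 lie far apart on both arrays, those of Ext2 and Hs3st1 lie close together, and Hs3st1 and Hs3st3b1 sit near 100 units.

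The extracellular sulfatases are described first. Sulf1 (chromosome 1, 12845435 to 12845494 on mm8, + strand) had a level of 11826 in the KO-labelled RNA and 733.7 in the WT-labelled RNA with KO in Cy5. With the dyes exchanged the levels were 11766 and 822.4. Both KO values lay far above both WT values. The log2 ratio was 3.92 ± 0.12 (SD between the arrays; 4.01 and 3.84), a 15.2-fold higher level, and was the 7th highest of 15877 genes. It was also the largest change among the members in either direction.

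Sulf2, the paralogue with the same activity, was bright in both RNAs and differed far less. Its brightest probe (chromosome 2, 165765372 to 165765431, - strand) had levels of 9956 and 10484 in the KO-labelled RNA and 7245 and 7798 in the WT-labelled RNA. The ratio of 0.44 ± 0.02 was a 1.36-fold difference and stood at rank 2071. Another probe, which shares 40 bases with it, gave 0.42. The log2 ratio of Sulf1 exceeded that of Sulf2 by 3.55 on one array and 3.41 on the other, so within the same hybridisations the 2 sulfatase transcripts changed unequally.

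The 6-O-sulfotransferases add the sulfates that the SULF enzymes remove, and their probes went in opposite directions. Hs6st1 (chromosome 1, 36050926 to 36050985, + strand) had levels of 5186 and 4734 in the KO-labelled RNA against 17541 and 16040 in the WT-labelled RNA. The KO values were lower on both arrays. The log2 ratio was -1.76 on each array, with an SD of 0.0019 between them, and the KO-labelled RNA held 29.5% of the level in the WT-labelled RNA. It was the 102nd lowest of 15877 genes. With each array centred on its median in place of loess, which leaves the dye effect, the arrays gave -0.73 and -2.61 and the call was lost.

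For Hs6st2, the brightest of its 3 probes (chromosome X, 47632469 to 47632528, - strand) had levels of 7578 and 7741 in the KO-labelled RNA and 2458 and 2493 in the WT-labelled RNA. The KO values were higher on both arrays. The ratio was 1.63 ± 0.01 (1.62 and 1.63), or 3.09-fold, at rank 200. Under median centring the arrays gave 2.57 and 0.81, and this call was lost as well. The other probes were dimmer and their ratios smaller. The one at 47921686 to 47921745, taken from a cDNA clone near the opposite end of the stretch of 289277 bases that the 3 probes span, gave 1.13 and 1.07 on the 2 arrays and was called. The one at 47633718 to 47633777 gave 0.91 and fell just short of 2-fold. With the ratio of the scanner software, which adds no offset, that dim probe was past 2-fold, at 1.40 on each array. All 3 probes of Hs6st2 pointed the same way.

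The log2 ratio of Hs6st2 exceeded that of Hs6st1 by 3.38 and 3.40 on the 2 arrays. This gap does not depend on where the centre of an array is set. With the brightest probe of each gene it ran from 3.29 to 3.46 on single arrays over 7 ways of background correction, normalisation and spot selection. That of Sulf1 over Sulf2 ran from 3.40 to 3.73. Of these ways, the ratio of the scanner software and the deposited table gave the same gaps. The choice of probe was not varied among them. With the mean over all probes Hs6st2 was at 1.21 in place of 1.63, which makes its gap over Hs6st1 smaller. Sulf2 was then at 0.43 in place of 0.44. Both gaps were compared after the ratios had been seen.

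**Figure D2:**
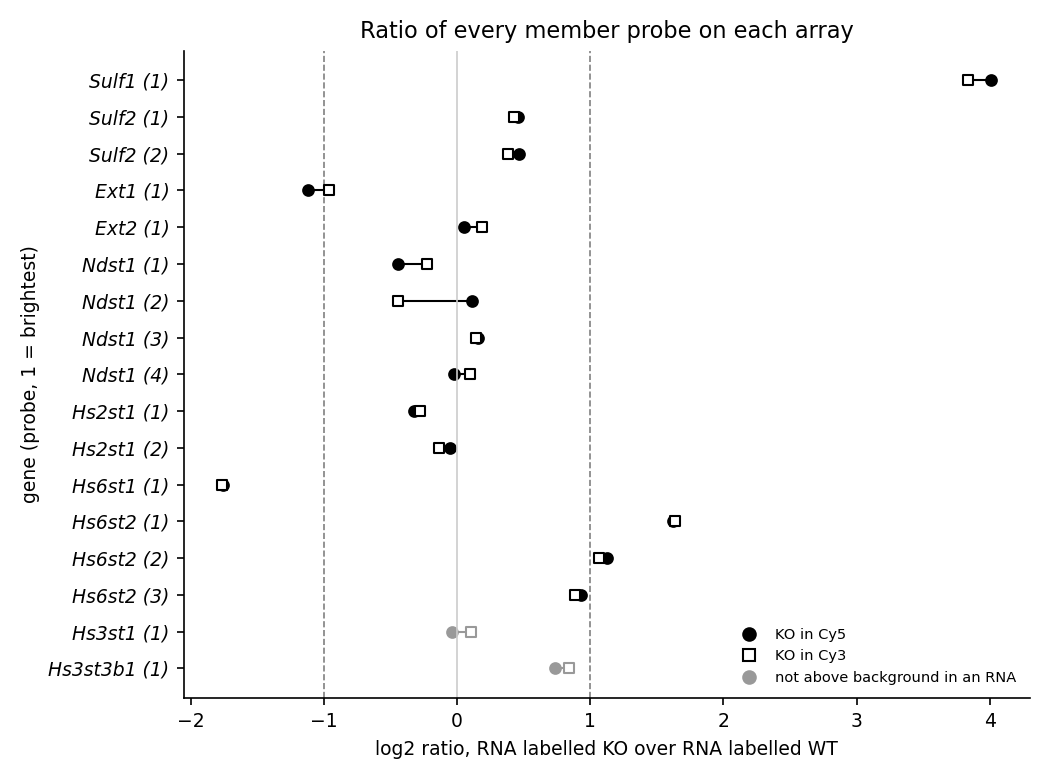
Log2 ratio of the KO-labelled RNA over the WT-labelled RNA (x axis) for all 17 member probes, numbered by brightness within each gene, with filled circles for KO in Cy5, open squares for KO in Cy3, grey for probes not well above background in an RNA and dashed lines at 2-fold. Sulf1 lies near 4, the 3 Hs6st2 probes between 0.91 and 1.63, Hs6st1 at -1.76, and 1 of the 2 Ext1 points lies just inside the dashed line.

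The chain polymerases also differed from each other. Ext1 (chromosome 15, 52903383 to 52903442, - strand), a glycosyltransferase subunit of the complex, had levels of 3116 and 3172 in the KO-labelled RNA and 6768 and 6172 in the WT-labelled RNA. The KO values were the lower ones on both arrays. The ratio was -1.04 ± 0.11, or 48.6% of the level in the WT-labelled RNA. Ext1 was not called, because 1 array gave -1.12 and the other -0.96.

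Ext2, its partner in the complex (chromosome 2, 93496588 to 93496647, - strand), had levels of 13622 and 13938 in the KO-labelled RNA and 13143 and 12245 in the WT-labelled RNA. The levels were close, and the log2 ratios were 0.05 and 0.19. Their mean of 0.12 ± 0.10 was just above 0.097, the SD of a mean of both arrays over the probes above background in both RNAs. The log2 ratio of Ext2 exceeded that of Ext1 by 1.17 and 1.15, and by 1.11 to 1.29 over the same ways of processing.

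Ndst1 and Hs2st1, which act on the chain next, showed small ratios. Ndst1 had 4 probes within 10832 bases, and the brightest, which was drawn from a cDNA clone with no assigned protein, had levels of 9905 and 9808 in the KO-labelled RNA and 13459 and 11472 in the WT-labelled RNA. Its ratio was -0.33 ± 0.15, whereas the other 3, from the RefSeq transcript, gave -0.17, 0.15 and 0.03. The probe at -0.17 had opposite signs on the arrays, 0.11 and -0.44. The Ndst1 probes thus differed in sign among themselves, and no direction is given for the gene.

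Hs2st1, the only 2-O-sulfotransferase of heparan sulfate (chromosome 3, 144371562 to 144371621, - strand), had levels of 1219 and 1232 in the KO-labelled RNA and 1522 and 1493 in the WT-labelled RNA. The KO values were lower on both arrays, by a log2 ratio of -0.30 ± 0.03. Its dimmer probe, at 144369313 to 144369372, gave -0.09, within the SD of a mean of both arrays (0.097).

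The 3-O-sulfotransferases, which make the rarest modification of the chain, were dim. The Hs3st1 probe (chromosome 5, 39902337 to 39902396) was not well above background in either RNA on either array, so no ratio is read from it. The Hs3st3b1 probe (chromosome 11, 63705328 to 63705387) had levels of 127 and 105.7 in the KO-labelled RNA and 76.3 and 58.9 in the WT-labelled RNA. It was well above background on both arrays in the KO-labelled RNA only. The bound for such a probe was 1.715-fold, nearly the fitted 1.728-fold. It uses the probe's own WT level or the dimmest signal above background, whichever is higher. Both values include the offset, so the bound is no separate limit. The fitted ratio of 0.79 was drawn towards 0 by the offset of 50 units added to every spot. It was 1.57 with an offset of 10, 1.07 without background subtraction and 2.90 in the ratio of the scanner software, and Hs3st3b1 was called under those 3 settings.

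**Figure D3:**
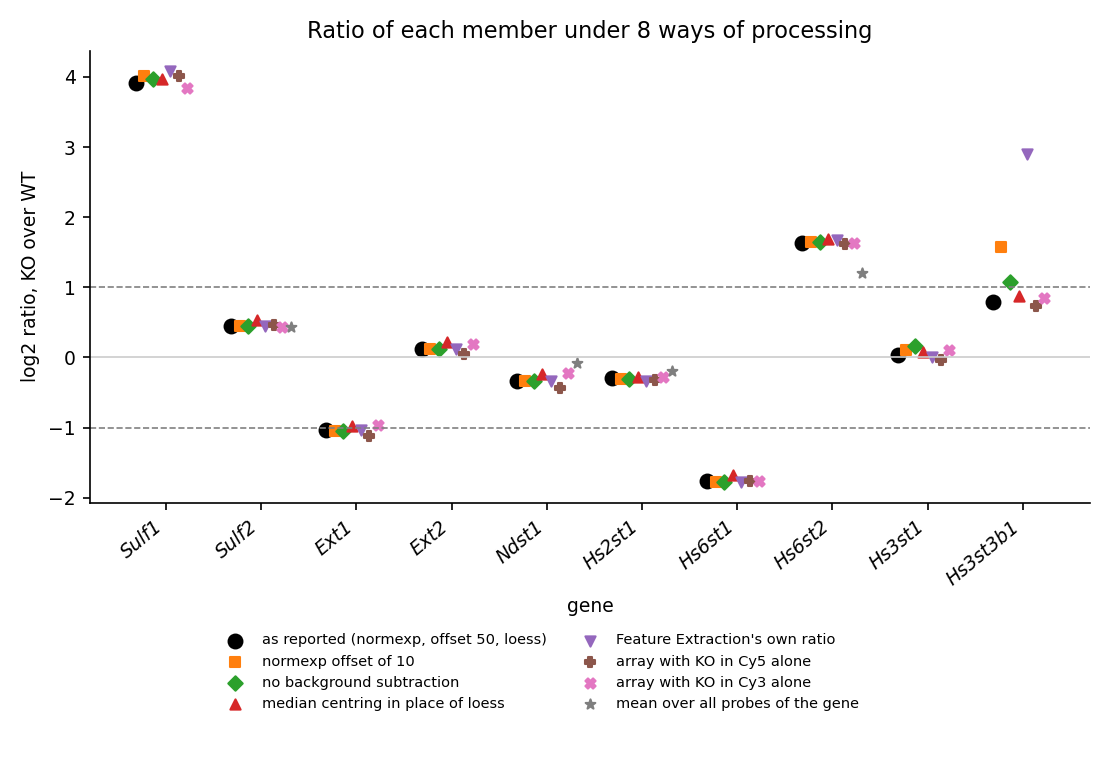
Log2 ratio of each member (y axis) under 8 ways of processing, marked by symbol and colour as in the key, with dashed lines at 2-fold. The symbols of 9 members lie close together, apart from the mean over probes of Hs6st2 at 1.21, whereas those of Hs3st3b1 run from 0.73 to 2.90.

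The remaining genes of the pathway were taken from lists by step and described by the same ratios, with no test. The lists were chosen with earlier results of these data known, so nothing is read from their counts. Over the whole array 2.95% of 15877 genes were called higher and 2.61% lower. Of the 13 other enzymes of the heparan sulfate chain, 11 had a probe and 5 were above background in at least 1 RNA. The list median was -0.01 over the 11 and -0.04 over the 5. None was called higher and 1 was called lower. That gene was Glce, the C5-epimerase, whose brightest probe had levels of 2344 and 2144 in the KO-labelled RNA and 5795 and 5837 in the WT-labelled RNA. Its ratio was -1.38 (-1.31 and -1.45), and its 2 dim probes gave -0.36 and 0.35. Among the others Ndst2, a further N-deacetylase/N-sulfotransferase, was at 0.25 and the chain initiator Extl3 at 0.08. Hs6st3, the third 6-O-sulfotransferase, was dim, at 138.2 to 171.7 units, and gave -0.05.

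All 15 genes of the linker and precursor list, which build the tetrasaccharide that joins chain to protein and supply sulfate and sugar donors, were above background, with a median of -0.08. Only Pxylp1 (named Acpl2 in the files), the phosphatase that removes the phosphate from the linker xylose, was called. Its levels were 486.2 and 494.2 in the KO-labelled RNA and 1520 and 1539 in the WT-labelled RNA, a ratio of -1.64 on each array, and a dimmer probe gave -0.43. The linker galactosyltransferase B4galt7 was at 0.60 and the glucuronyltransferase B3gat3 at 0.28, though another B3gat3 probe gave -0.35. Bpnt2 (Impad1 in the files), a phosphatase of the Golgi that clears the by-product of sulfation, was at -0.52, and its 2 other probes were lower as well.

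The median of the list of lysosomal heparan sulfate degradation was 0.15 over all 9 genes with a probe and 0.06 over the 8 above background. No gene of the list was called. That holds for the brightest probes: the dimmer of the 2 probes of Gusb, the lysosomal glucuronidase, was called lower, with levels of 503.6 and 564.9 against 1136 and 1236, while the brighter one gave -0.13. Gusb is outside the naming rule and was added after its values had been seen. The lowest and highest were Arsg (-0.33), Hgsnat (-0.16), Naglu (0.60) and Idua (0.77). Idua, the iduronidase, had levels of 272.5 and 256.4 in the KO-labelled RNA and 160.6 and 150.1 in the WT-labelled RNA. The ratio stayed short of 2-fold. With the ratio of the scanner software, which adds no offset, it was past 2-fold on both arrays, at 1.27 and 1.20.

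Chondroitin and dermatan sulfate are built on the same linker. Of their 16 enzymes 15 were above background, with a median of -0.15. Of these enzymes 0 were called higher and 2 lower, beside 2.95% and 2.61% of 15877 genes. Csgalnact1 (4732435N03Rik in the files), which starts the chondroitin chain, had levels of 622.9 and 615.9 in the KO-labelled RNA and 1880 and 1809 in the WT-labelled RNA, a ratio of -1.57. Chst3, a chondroitin 6-O-sulfotransferase, was dim and gave -1.17 and -1.02, or -2.20 and -2.03 with the ratio of the scanner software. The highest were the polymerising factor Chpf (D1Bwg1363e in the files) at 0.58 and the 4-O-sulfotransferase Chst12 at 0.45.

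Among the core proteins that carry the chain, 12 of 13 had a probe, and the median was -0.37. Over the 11 above background in at least 1 RNA it was -0.48. Of the core proteins 0 were called higher and 4 lower, beside 2.95% and 2.61% of the 15877 genes above background in at least 1 RNA. The glypicans Gpc3 (-3.80) and Gpc1 (-1.30) and the basement membrane proteins Agrn (-2.19) and Col18a1 (-1.62) were the 4, and the highest were Gpc6 at 0.50 and Sdc1 at 0.45. Gpc3 was near background in the KO-labelled RNA, at 106.4 and 125.3 units, and its ratio was -4.93 by the scanner software. The 2 dim probes of Agrn gave -0.21 and -0.09.

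**Figure D4:**
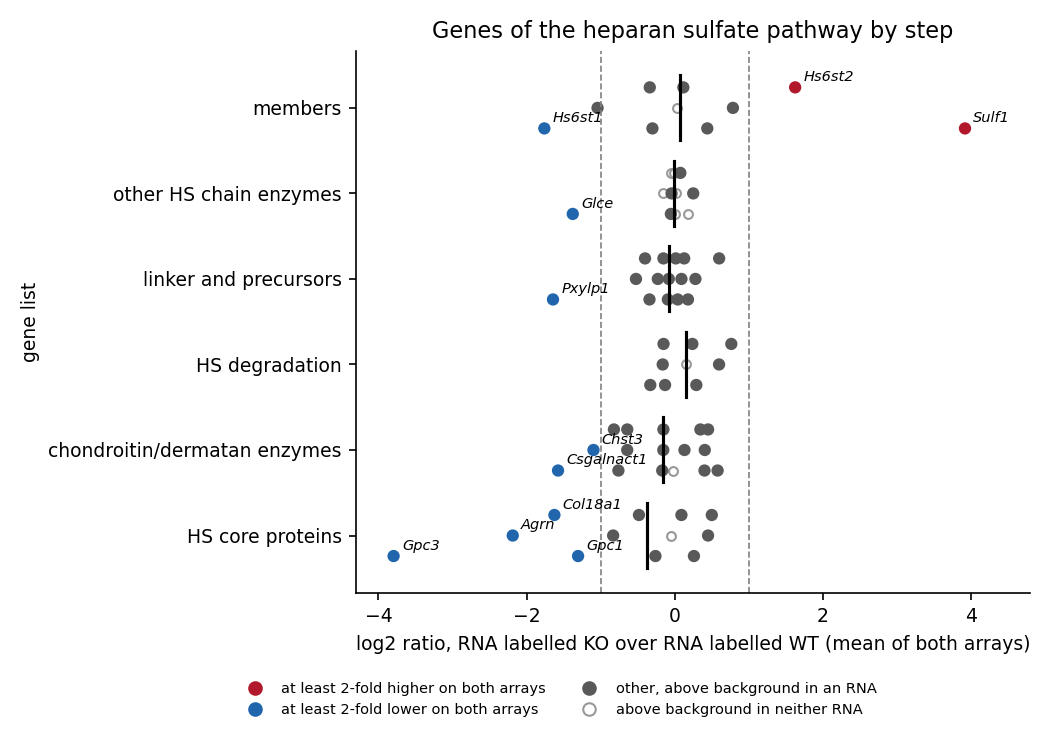
Log2 ratio (x axis, mean of both arrays) of each gene in 6 lists of the heparan sulfate pathway, with red for called higher, blue for called lower, dark grey for other genes above background in an RNA, open symbols for genes above background in neither, a black bar at each list median and dashed lines at 2-fold. Only Sulf1 and Hs6st2 are red, and 4 of the 9 blue genes are core proteins. Over all 15877 genes above background in an RNA, 2.95% were called higher and 2.61% lower.

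Marker genes were read beside these values. All 9 fibroblast markers with a probe were well above background on both arrays in at least 1 RNA, but the Vim probe was dim, at 74.8 to 155.6 units. None was called, their median ratio was -0.41, and they ran from -0.89 for Vim to 0.89 for Fn1. The sum of their levels was 123158 and 115393 in the KO-labelled RNA and 138039 and 144880 in the WT-labelled RNA. Such sums over probes follow the brightest probe, here Thy1 at 46623 and 41963 against 57420 and 63797. They do not measure the content of a cell type. No endothelial marker of 6 and no skeletal muscle marker of 6 was above background on both arrays. Of the macrophage and leukocyte markers 3 of 7 were above background, with sums of 611.7 and 614.2 against 802.4 and 805.9. Ptprc, Adgre1 and Aif1 were at background, and Csf1r and Cd68 were dim but above it in both RNAs, with ratios of -0.05 and 0.14. Cd14 was called lower, at 160.8 and 188.9 units against 343 and 379, and made most of the gap between the sums. Of the epithelial markers 2 of 7 were above background, namely Krt5 and Krt14, with Epcam and Cdh1 among those at background, and the sums ran from 497.8 to 521.4. Of the neural markers 5 of 6 were, with sums of 2478 and 2449 against 3598 and 3545. Most of that gap was the Map2 probe, at -0.95. Nes was also lower on both arrays, at -0.30, while Tubb3 was at -0.11, Sox10 at 0.003 and Rbfox3 at 0.05. The part of these differences in the ratios of the heparan sulfate genes was not tested. In such bulk RNA fewer cells of a type and less RNA per cell cannot be told apart.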

How the data were processed

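Both arrays were made from total RNA of the 2 genotypes, labelled as cRNA with Cy5 or Cy3, and per the file headers they lie on the same slide and were scanned together. The authors deposited, from Agilent Feature Extraction 10.5.1.1 (as the submitters' processing notes name it), each spot's mean signal and local background median, an intensity in arbitrary units, with a log10 ratio of Cy5 over Cy3. They also deposited a table of log2 ratios, which equalled the ratio of the processed signals of KO over WT within 0.01 for 99.8% of probes on each array. Its column medians were -0.018 and 0.037. Probe positions are those of the files (mm8), and the exon or untranslated region a probe lies in was not analysed here.

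Background correction used normexp with an offset of 50 (limma 3.58.1, R 4.3.3), followed by loess within each array, and levels per channel were also scaled between arrays (Aquantile). Levels include the offset, and dim probes therefore have ratios drawn towards 0. Control spots (1639 of 45018) had weight 0. Spots with an outlier flag (390 and 378) were left out and spots of a probe averaged. The sign of the array with KO in Cy3 was turned. The brightest of several probes stood for a gene. For a probe well above background in 1 RNA only, the bound sets the brighter RNA against the dimmest signal above background or, where that is higher, the probe itself on each array. The steps were checked on a simulated dye swap. Tables were handled with Python 3.11.15 and pandas 2.3.3, and plots were drawn with matplotlib 3.10.9.

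Both arrays were treated as technical, a dye swap that counts as 1 replicate, and the t-test named in the methods was run over them only as an alternative. A fold of 2 is also what the methods of the study use. The members, the 11 other gene lists and their markers were chosen with earlier results of these data known. The text names every member, and in each list of the pathway the genes called and the 2 highest and 2 lowest among those above background in both RNAs. The number of arrays limits the precision of every value.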

Additional observations from a re-analysis of the deposited data

How the results depend on the processing

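In all, 262 values were recomputed under other settings. Of these, 235 stayed within the SD of a single probe or, for counts, within 1.5 times the reported count, and 27 moved further. The ratios of the called members Sulf1, Hs6st1 and Hs6st2 kept their sign. Some values near 0 did not: Hs3st1 was at 0.04 as reported and -0.04 with KO in Cy5 alone. The linker and precursor median was -0.08 as reported and 0.01 with median centring. Each ratio pairs the 2 RNAs within an array. No analysis over replicate RNA pairs was possible because each group has 1 sample, on arrays treated as a dye swap of 1 RNA pair. Median centring in place of loess leaves the dye effect on each array. It called 321 probes higher and 169 lower (65.5% higher, against 54.4% as reported), and of the members 1 higher (Sulf1) and 0 lower, although the mean ratios of Hs6st1 and Hs6st2 were then -1.67 and 1.69. The ratio of Feature Extraction called 1280 probes higher and 1220 lower, and the log2 values deposited by the authors 1284 higher and 1224 lower. Both gave 4.08 for Sulf1 and 2.90 for Hs3st3b1, which was at 1.57 with an offset of 10 and at 1.07 without background subtraction. Averaging all probes of each gene put Hs6st2 at 1.21, Ndst1 at -0.079 and the median of the fibroblast markers at -0.16. Members called lower numbered 2 on the array with KO in Cy5 alone, with Ext1 added. The methods' t-test at 2-fold was also run over the ratios of the 2 arrays. These are 2 values from 1 RNA pair, which leave 1 degree of freedom. It therefore compares the 2 hybridised RNAs and not the genotypes, and its calls are not listed here. Counts of those calls are among the 262 recomputed values. No call was left after Benjamini-Hochberg adjustment, an outcome that says little with so few values. The median of the core proteins was -0.52 with the ratio of Feature Extraction and -0.51 with the deposited table, that of the endothelial markers 0.13 with KO in Cy5 alone, and that of the epithelial markers -0.16 with the deposited table. Among the other pathway genes the ratio of Feature Extraction also called Idua (1.23) and Gpc2 (1.27) higher and Chsy3 (-1.72) lower, named here after their values had been seen. The causes were not tested. The differences between related members were added after the data had been seen. Hs3st1 at background, and Hs3st3b1 in the RNA labelled WT, are limited by signal.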
